A study of Mus musculus with 62 samples.

Results

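Clock, Npas2, Arntl, Bhlhe40 and Bhlhe41 are the transcription factors that start the transcriptional loop of the circadian clock and a pair of repressors that feed back on it. They were chosen by name, and the Ensembl identifier of each was looked up in the deposited gene counts. All 5 were in the table of the suprachiasmatic nucleus (SCN) and in the table of the nucleus accumbens (NAc) and prefrontal cortex (PFC), out of 12047 and 11569 genes. The libraries came from tissue punches of male and female C57BL/6J mice, killed at ZT6, which is in the light phase, about 4 weeks after circadian rhythm disruption (CRD, shifts of the light cycle) or a control schedule had ended. There were 19 SCN libraries, 26 NAc libraries and 17 PFC libraries from 26 mice, each library from 1 mouse. The labels name the region and the mouse and nothing more: whether a mouse was a CRD mouse or a control, a female or a male, is not given for a library. By the study's methods the sequenced mice had CRD in adolescence or were matching controls, but the protocol in the labels also lists adult CRD, and the labels of single libraries do not settle the age at exposure. The 3 regions are therefore the groups compared, each group mixes CRD and control mice of both sexes, and no effect of CRD was tested.

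As background, CLOCK and its close relative NPAS2 are basic helix-loop-helix proteins that each pair with ARNTL, also called BMAL1, and activate genes through a short DNA element, the E-box. Their targets include the Per, Cry and Nr1d genes and Dbp. PER and CRY proteins inhibit the activators, BHLHE40 and BHLHE41 (DEC1 and DEC2) repress through E-boxes, and the ROR and REV-ERB (Nr1d) proteins raise and lower Arntl transcription. The SCN holds the master clock of the brain, the NAc is the ventral part of the striatum and the PFC is a cortical area, and both of the latter serve reward and decision making.

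The members' windows around the start of transcription (RefSeq, GRCm38.p6, 250 bases before to 50 after the start) show which clock elements lie next to these genes. Windows were given for 4 of the 5 genes, Bhlhe40 being the exception. Clock and Arntl had more than 1 window each. A member was counted if any of its windows held the element, while the shares of all genes are per window, so the units differ. The E-box CACGTG, which reads the same on both strands, was found in 1 of the 4 genes, Bhlhe41, and in 7.15% of the 32851 windows of all genes. The letters TAGGTCA, the core of the element that ROR and REV-ERB proteins bind, were found in 1 of the 4 genes, Arntl, and in 2.61% of all windows. The E-box variant CACGTT (4.68% of all windows) and the letters TTATGTAA of the D-box (0.938% of all windows) were in none of the 4. Every element was searched on both strands, none of these words overlapped in a member, and a match is a match of letters only. These 2 windows are printed because they hold the elements, with the element in capitals. The Bhlhe41 window lies at chr6:145865371-145865670 on the minus strand, and its E-box starts 153 bases before the start. The Arntl window lies at chr7:113207261-113207560 on the plus strand, and its element starts 30 bases after the start. The other Arntl window, at chr7:113207215-113207514, did not hold these letters.
Bhlhe41: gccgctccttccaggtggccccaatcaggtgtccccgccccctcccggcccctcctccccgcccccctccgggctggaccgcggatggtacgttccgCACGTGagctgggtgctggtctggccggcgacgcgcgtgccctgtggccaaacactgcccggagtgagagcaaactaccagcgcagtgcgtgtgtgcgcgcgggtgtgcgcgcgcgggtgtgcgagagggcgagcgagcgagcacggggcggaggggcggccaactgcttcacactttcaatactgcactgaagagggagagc
Arntl: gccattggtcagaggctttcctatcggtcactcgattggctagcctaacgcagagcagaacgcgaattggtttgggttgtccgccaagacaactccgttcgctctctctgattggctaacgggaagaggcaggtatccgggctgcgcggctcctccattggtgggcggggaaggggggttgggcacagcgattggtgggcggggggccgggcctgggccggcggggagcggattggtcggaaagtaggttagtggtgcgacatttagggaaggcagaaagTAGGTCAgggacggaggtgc

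Libraries held between 16496666 and 35389742 counts for the SCN, between 28879724 and 60009482 for the NAc and between 31216225 and 50333579 for the PFC, and a median of 54.5% to 57.1% of them lay on mitochondrial and ribosomal RNA genes. Some libraries stood apart. SCN J1199 and SCN J1140 held genes of striatal neurons at a summed 556 and 262 CPM (read counts scaled to the library size with TMM factors), against a median of 62.3 CPM in the SCN. In SCN J1165, Xist was at 53.1 CPM, against 0.589 CPM for the NAc library of the same mouse number and 0.372 CPM for its PFC library. Whether this SCN library came from the same mouse as those libraries is therefore not settled. Comparisons within a mouse below go by the mouse number and include it unless stated. NAc J1159 had the largest share of mitochondrial and ribosomal RNA, 75.2%, and NAc J1199 had the lowest sum of striatal genes, 970 CPM, and the highest sum of cortical genes, 443 CPM. Where a call changed without these libraries, the value without them is given. The SCN was scaled on its own, so no level was tested across the tables.

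Clock, which encodes the main partner of ARNTL in the SCN clock, had close medians in the NAc and PFC, and its SCN median depended on the scaling. Clock (ENSMUSG00000029238, chromosome 5, 76209868 to 76304792, minus strand) had a lowest, median and highest SCN level of 47.2, 64.5 and 80.6 CPM. These were 48.2, 67.1 and 83.5 CPM for the NAc and 61.4, 67.0 and 72.6 CPM for the PFC. The 3 ranges overlapped, and the NAc range spanned the whole PFC range. With a joint TMM scaling of all libraries the medians were 58.5 CPM for the SCN, 71.1 CPM for the NAc and 70.5 CPM for the PFC. With mitochondrial and ribosomal RNA genes left out of the library size they were 147, 162 and 158 CPM, and the levels of the other members rose in the same way. In the PFC, Clock had a standard deviation of 0.061 on the log2 scale over the 17 libraries, and 0.519% of the genes of that region had a smaller value. The same share was 13.2% in the NAc and 27.4% in the SCN.

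Npas2, whose protein can take the place of CLOCK beside ARNTL and which is known for its forebrain expression, was low in the SCN and high in the NAc and PFC. Npas2 (ENSMUSG00000026077, chromosome 1, 39193731 to 39363236, plus strand) had a lowest, median and highest level of 3.84, 6.96 and 19.6 CPM over the SCN libraries. The NAc values were 44.1, 58.3 and 68.0 CPM, and those of the PFC 33.3, 38.8 and 46.5 CPM. Every SCN library was below every NAc and PFC library, also when all libraries were scaled together over the genes shared by the tables. The share of all genes with no overlap between the SCN and another region was not counted, here or for the members below. Of the 26 NAc libraries, 25 were above every PFC library. The exception was NAc J1199, the library with the least striatal and most cortical RNA. The highest SCN value, 19.6 CPM, was that of SCN J1199. Without SCN J1199, SCN J1140 and SCN J1165 the SCN range was 3.84 to 11.5 CPM. In bulk tissue, fewer cells that express a gene and less of its RNA per cell cannot be told apart, here or in any other comparison of regions.

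Arntl, the shared partner of CLOCK and NPAS2, was highest in the PFC. Arntl (ENSMUSG00000055116, chromosome 7, 113207465 to 113314126, plus strand) lay between 13.8 and 20.7 CPM over the SCN libraries (median 17.7 CPM) and between 13.2 and 20.2 CPM over the NAc libraries (median 17.5 CPM). The PFC libraries held 22.4 to 32.4 CPM (median 25.0 CPM), each above every library of the other regions. The SCN and NAc ranges covered nearly the same values.

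The repressors went opposite ways between the PFC and the other regions. Bhlhe40 (ENSMUSG00000030103, chromosome 6, 108660629 to 108666925, plus strand) lay between 26.4 and 46.6 CPM for the SCN (median 34.7 CPM), between 17.3 and 34.6 CPM for the NAc (median 23.9 CPM) and between 47.4 and 91.8 CPM for the PFC (median 67.7 CPM). Bhlhe41 (ENSMUSG00000030256, chromosome 6, 145858243 to 145865558, minus strand) lay between 31.9 and 64.1 CPM for the SCN (median 42.4 CPM), between 20.2 and 33.3 CPM for the NAc (median 27.3 CPM) and between 10.9 and 16.6 CPM for the PFC (median 13.7 CPM). The PFC libraries thus held the highest values of Bhlhe40 and the lowest of Bhlhe41, with no overlap with the NAc or the SCN for either gene. The SCN and NAc ranges overlapped for both. Of all NAc libraries, NAc J1199 had the highest Bhlhe40 and the lowest Bhlhe41. Bhlhe40 starts inside the antisense gene 0610040F04Rik, and the other members each overlap small annotated genes or pseudogenes, so some of their reads could not be assigned to them alone if the counting did not use strand.

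**Figure D1:**
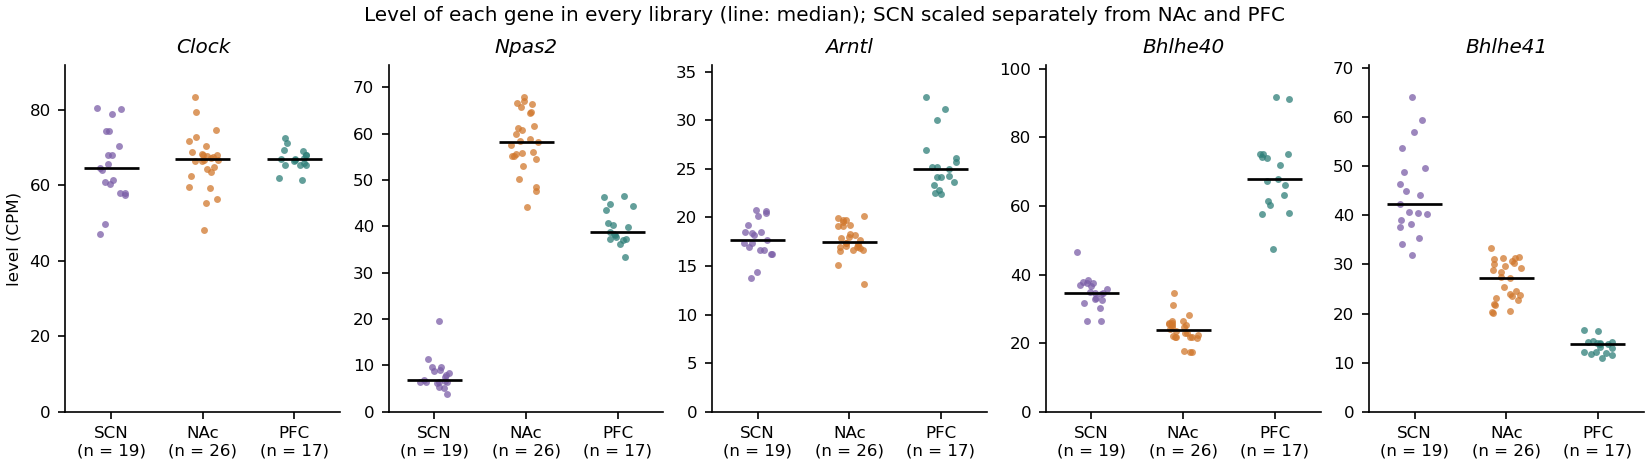
Level in CPM (vertical axis, from 0) of each of the 5 genes in every library of the SCN, NAc and PFC; each point is 1 library and each line a median. Npas2 in the SCN stays at or below 19.6 CPM while the NAc and PFC start at 33.3 CPM, and the PFC stands above for Arntl and Bhlhe40 and below for Bhlhe41.

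Per kb of merged exon, which allows the genes to be compared with each other though their isoforms were not resolved, Npas2 had the highest median level of the 5 in the NAc and the lowest in the SCN. In the SCN the medians were 7.38 CPM per kb for Bhlhe40, 6.30 for Bhlhe41, 4.70 for Clock, 2.35 for Arntl and 1.45 for Npas2. In the NAc they were 12.2 CPM per kb for Npas2, 5.07 for Bhlhe40, 4.89 for Clock, 4.06 for Bhlhe41 and 2.33 for Arntl. In the PFC they were 14.4 CPM per kb for Bhlhe40, 8.11 for Npas2, 4.88 for Clock, 3.33 for Arntl and 2.04 for Bhlhe41. Arntl was below Clock in all 3 regions, and the neighbours Bhlhe40 and Clock in the NAc had overlapping ranges, from 3.67 to 7.34 and from 3.51 to 6.08 CPM per kb.

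The NAc was then compared with the PFC across all genes, to ask which members differ between these reward regions. Npas2 was higher in the NAc by 0.54 on the log2 scale (SE 0.049, adjusted p = 2.3e-13, edgeR's quasi-likelihood test with Benjamini-Hochberg adjustment), and Bhlhe41 was higher by 0.99 (SE 0.066, adjusted p = 6.3e-18). Bhlhe40 fell by 1.53 on the log2 scale from the PFC to the NAc (SE 0.070, adjusted p = 7.8e-24), and Arntl fell by 0.53 (SE 0.046, adjusted p = 6.2e-14). Clock had a log2 difference of -0.0097 (SE 0.043, adjusted p = 0.86) and did not pass. Calling a gene needed an adjusted p below 0.05 together with a change of 1.2-fold or more, and 4 of the 5 members were called, 2 in each direction. Of all 11569 genes, 45.4% were called, 23.7% higher and 21.7% lower in the NAc, so being called is common between these regions. The ranges over libraries did not overlap for 3 of the 5 members, Arntl, Bhlhe40 and Bhlhe41, and for 9.5% of all genes.

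Among the absolute log2 differences of all genes, that of Bhlhe40 was at percentile 95.9, Bhlhe41 at 90.9, Npas2 at 78.7, Arntl at 78 and Clock at 2.6. In the 17 mice with both regions, Npas2 and Bhlhe41 were higher in the NAc in 17 mice, Arntl and Bhlhe40 were lower in 17 mice, and Clock was higher in 8 and lower in 9. The difference within a mouse ranged from 0.11 to 0.85 for Npas2, from 0.29 to 1.42 for Bhlhe41, from -0.94 to -0.26 for Arntl and from -2.41 to -1.11 for Bhlhe40, all on the log2 scale. The mouse numbers leave a gap between J1021 and J1140, and the lower and upper ranges were treated as possible batches. The log2 difference in the lower and the upper range was 0.49 and 0.57 for Npas2, 1.06 and 0.94 for Bhlhe41, -0.54 and -0.53 for Arntl, and -1.68 and -1.42 for Bhlhe40. The 4 called members kept their call without NAc J1159 and without NAc J1199.

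The other genes of the clock loop that were listed moved in both directions. Of 25 such genes 22 were in the table, 6 were called higher in the NAc, 4 were called lower and 12 were not called, which is 10 of 22 against the background given above. The largest differences towards the NAc were those of Fbxl21, which takes part in CRY turnover, at 1.15 (SE 0.12), of Dbp, an output factor driven by E-boxes, at 0.96 (SE 0.077), and of Sik1, a kinase of the light response, at 0.94 (SE 0.13). The largest towards the PFC were those of Nfil3, a repressor that competes with DBP, at -0.69 (SE 0.12), of Csnk1e, a PER kinase, at -0.43 (SE 0.063), and of Rora, an activator of Arntl, at -0.35 (SE 0.072). The adjusted p of these 6 genes was at most 3.9e-05 (edgeR's quasi-likelihood test). Fbxl21 and Nfil3 had low levels, with medians of 4.80 and 1.70 CPM in the NAc and 2.22 and 2.44 CPM in the PFC. A filter of a mean of at least 5 CPM left both out. Sik1 was at 0.53 in the lower and 1.27 in the upper mouse numbers (adjusted p of the difference 0.15), and in the lower ones Cry1, an inhibitor of the activators, exceeded it at 0.97. Nr1d1, the repressor of Arntl, was at -0.31 (SE 0.088, adjusted p = 0.0020, edgeR). It was at -0.45 in the lower mouse numbers and at -0.41 with the mouse as replicate block, where Rora was at -0.30 and -0.31. In the upper mouse numbers Nr1d1 was at -0.21 with adjusted p = 0.035, under the fold threshold, and was not called (edgeR).

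**Figure D2:**
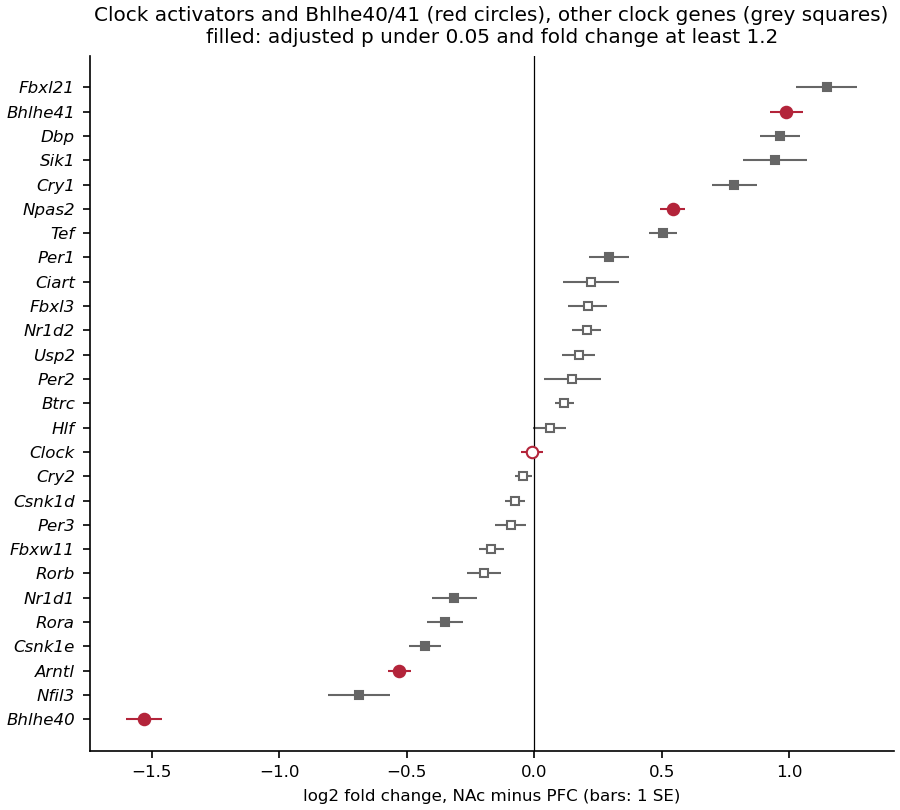
Log2 fold change, NAc minus PFC (horizontal axis, bars 1 SE), of the 5 genes (red circles) and 22 other clock genes (grey squares); filled symbols were called. Bhlhe40 at -1.53 lies farthest to the left, Bhlhe41 at 0.99 near the right end and Clock at 0.

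A ratio of 2 genes within a library does not depend on scaling, so it was compared over all 3 regions. Npas2 counts were 0.118 of Clock counts in the median SCN library (0.0638 to 0.305), 0.912 in that of the NAc (0.652 to 1.16) and 0.593 in that of the PFC (0.468 to 0.732). Per kb of exon these medians were 0.337, 2.61 and 1.7, so that Npas2 exceeded Clock per length in every NAc library (at least 1.87) and every PFC library (at least 1.34), and in no SCN library (at most 0.874). The mean log2 ratio was lower in the SCN than in the NAc by a difference of -2.91, lower than in the PFC by -2.36, and the NAc exceeded the PFC by 0.56. Each of the 3 had p = 1e-05, the smallest that 100000 resamples can give, and adjusted p = 1.3e-05 over 9 comparisons (two-sided permutation tests). The ratio was lower in the SCN in 19 of 19 mice with the NAc and in 12 of 12 mice with the PFC. The SCN library with the highest ratio was SCN J1199. Without SCN J1199, SCN J1140, SCN J1165 and NAc J1159 the differences were -3.03 and -2.48. The ratio was then higher in the SCN in 0 of 15 mice with the NAc and in 0 of 11 mice with the PFC.

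The ratio of Arntl to Clock separated the PFC from the others. Arntl counts were 0.374 of Clock counts in the median PFC library, 0.268 in the NAc and 0.265 in the SCN. The log2 difference was -0.51 for the NAc minus the PFC and -0.48 for the SCN minus the PFC, both with p = 1e-05, the smallest that 100000 resamples can give, and adjusted p = 1.3e-05 (permutation test). It was 0.033 for the SCN minus the NAc, which did not pass (adjusted p = 0.52). In the mice with both, the NAc was below the PFC in 17 of 17 and the SCN was above it in 1 of 12.

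The ratio of the paralogs Bhlhe41 and Bhlhe40 was lowest in the PFC. Bhlhe41 counts were 1.25 times the Bhlhe40 counts in the median SCN library (0.926 to 1.87), 1.12 times for the NAc (0.584 to 1.69) and 0.192 times for the PFC (0.155 to 0.274), so the PFC overlapped with neither. The log2 ratio of the NAc exceeded that of the PFC by 2.51 and that of the SCN exceeded the PFC by 2.71, both with p = 1e-05, the smallest that 100000 resamples can give, and adjusted p = 1.3e-05 (permutation test). All 17 mice with the NAc and PFC and all 12 with the SCN and PFC showed this direction. The SCN exceeded the NAc by 0.20, with adjusted p = 0.069, in 13 of 19 mice. That last difference depended on the setting. It passed with the mouse as a replicate block, at 0.26 with adjusted p = 0.040, without the 4 libraries named above, at 0.24 with adjusted p = 0.045, and for the upper mouse numbers, at 0.34 with adjusted p = 0.030. It was 0.013 for the lower mouse numbers, with adjusted p = 0.92 (exact test), and 0.15 with medians, with adjusted p = 0.20 (permutation tests).

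**Figure D3:**
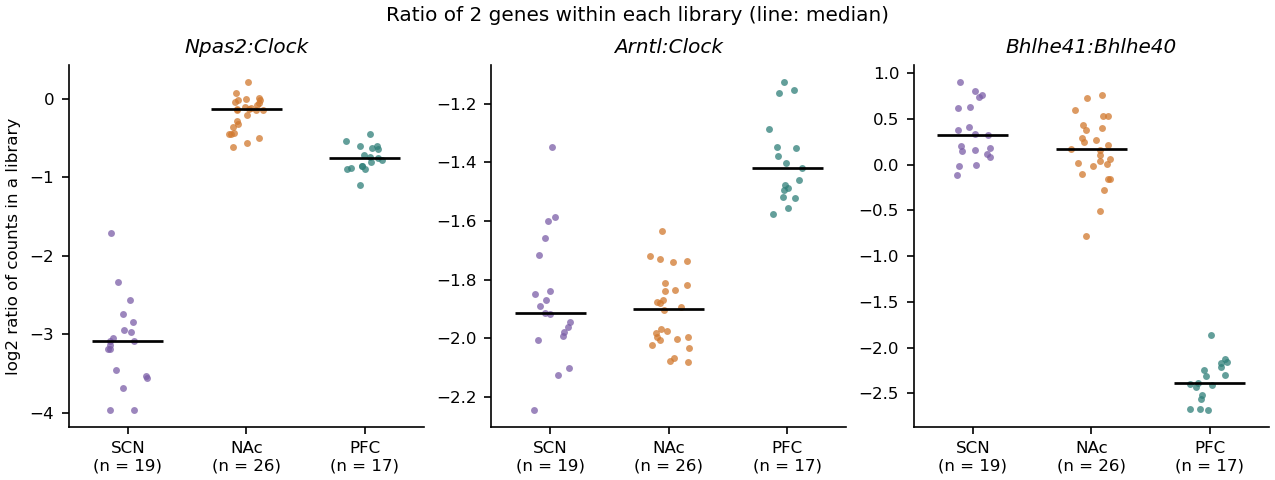
Log2 ratio of the counts of 2 genes within each library (vertical axis, a separate scale in each panel) in the SCN, NAc and PFC, with medians as lines. The SCN lies lowest for Npas2 to Clock, at a median of -3.09, and the PFC lies highest for Arntl to Clock and lowest for Bhlhe41 to Bhlhe40, at a median of -2.38.

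Covariance across the libraries of a region was described next, since genes of 1 loop can rise and fall together between mice or punches. Of the 10 pairs of members in each region, 2 passed in the SCN, 2 passed in the NAc and 0 passed in the PFC, after adjustment over the 30 tests (two-sided permutation tests of Pearson r). In the PFC 0 pairs had an unadjusted p under 0.05 by Pearson r, and 1 did by Spearman rho, Bhlhe40 with Bhlhe41 (rho 0.49, permutation p = 0.049).

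In the SCN, Bhlhe41 rose and fell with both activators, Clock and Arntl. The r of Clock with Bhlhe41 was 0.69 (n = 19, rho 0.69 with permutation p = 0.0014, p = 0.001 for r and adjusted p = 0.015). It was 0.68 for the lower mouse numbers, 0.71 for the upper ones and 0.68 without the 2 libraries of the most extreme Clock, where the adjusted p was 0.088. Of all other genes, 5.53% had an r with Clock that was as large, and 3.67% had one with Bhlhe41. The r of Arntl with Bhlhe41 was 0.65 (rho 0.57 with permutation p = 0.012, p = 0.0026 for r and adjusted p = 0.026), 0.71 and 0.66 in the 2 ranges, and 0.56 without the 2 extreme libraries (adjusted p = 0.20). Of all other genes, 1.91% had an r with Arntl that was as large, and 5.97% had one with Bhlhe41. Without SCN J1199, SCN J1140 and SCN J1165 the first pair passed, at 0.74 with adjusted p = 0.018, and the second did not, at 0.64 with adjusted p = 0.061 (permutation tests). After the scores of SCN neurons, oligodendrocytes and astrocytes had been fitted out of both genes, Clock with Bhlhe41 passed, at 0.65 with adjusted p = 0.046, while Arntl with Bhlhe41 fell to 0.26 with adjusted p = 0.48 (permutation tests).

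In the NAc, the partners Clock and Arntl moved together, with r = 0.66 (n = 26, rho 0.52 with permutation p = 0.0074, p = 0.0005 for r and adjusted p = 0.015). As large an r with Clock was found for 3.24% of all other genes, and with Arntl for 2.94%. The r of the pair was 0.67 and 0.59 within the ranges of mouse numbers. It was 0.38 without the 2 libraries of the most extreme Clock (adjusted p = 0.43), so the call depended on those libraries. The pair passed at 0.68 without NAc J1159 (adjusted p = 0.017) and at 0.67 without NAc J1199 (adjusted p = 0.011). After the scores of striatal neurons, oligodendrocytes and astrocytes had been fitted out it passed at 0.61 (adjusted p = 0.029, permutation tests). The same pair had r = 0.39 in the SCN and 0.47 in the PFC, which did not pass (adjusted p = 0.25 and 0.21, permutation tests). Npas2 and Bhlhe40 moved in opposite directions in the NAc, with r = -0.53 (rho -0.47 with permutation p = 0.017, p = 0.0058 for r and adjusted p = 0.043), -0.33 and -0.76 within the ranges and -0.35 without the 2 extreme libraries. Without NAc J1199, which had the lowest Npas2 and the highest Bhlhe40, r was -0.38 with adjusted p = 0.22, without NAc J1159 it was -0.52 with adjusted p = 0.061, and after the scores of striatal neurons, oligodendrocytes and astrocytes had been fitted out it was -0.29 with adjusted p = 0.36 (permutation tests). An r with Npas2 as large in size as that over all NAc libraries was found for 7.43% of all other genes. For Bhlhe40 that share was 31.7%. Clock and Npas2, the alternative partners of ARNTL, had r of -0.016, 0.16 and -0.21 for the SCN, NAc and PFC in that order, and Npas2 and Arntl had -0.10, 0.11 and 0.025. Bhlhe40 and Bhlhe41 had 0.16, -0.24 and 0.45, and none of these passed. Clock and Bhlhe40 had r = -0.46 over all NAc libraries, which did not pass (adjusted p = 0.10). Without NAc J1199 that pair passed, at -0.54 with adjusted p = 0.042. It was -0.44 without NAc J1159 (adjusted p = 0.14) and -0.30 after the fit of composition scores (adjusted p = 0.36, permutation tests).

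Each member was then compared with scores for cell types, for activity-induced genes such as Fos and Egr1, and for 9 targets of the clock activators (Per1, Per2, Per3, Nr1d1, Nr1d2, Dbp, Tef, Hlf and Ciart). To make a score, the z-scores of its genes over the libraries of a region were averaged. Of the 125 relations, adjusted together, 4 passed in the SCN, 6 passed in the NAc and 1 passed in the PFC. The strongest were those of Bhlhe41 in the SCN.

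In the SCN, Bhlhe41 followed the clock targets with r = 0.90 (n = 19, rho 0.92), and both permutation p-values were 1e-05, the smallest that 100000 resamples can give (adjusted p = 0.00063 for r). The r was 0.94 for the lower mouse numbers, 0.90 for the upper ones, 0.90 without the 2 libraries of the most extreme score, and 0.92 without SCN J1199, SCN J1140 and SCN J1165. Of the other genes of the SCN table, 0.0498% had an r with this score that was as large in size. All 9 targets had a positive r with Bhlhe41, from 0.077 for Tef to 0.92 for Per2, with 0.91 for Nr1d1, 0.90 for Per1, 0.88 for Dbp and 0.81 for Hlf. Bhlhe41 was lowest in SCN J1018, at 31.9 CPM, where the 9 targets summed to 362 CPM, and highest in SCN J1159, at 64.1 CPM, where they summed to 609 CPM.

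Genes of SCN neurons moved with the same libraries. Their score, from the neuropeptide genes Avp, Vip, Nms, Grp and Prok2 with Lhx1, Six6, Gpr176 and Syt10, had r = 0.85 with Bhlhe41 (rho 0.91, both permutation p-values 1e-05, the smallest that 100000 resamples can give, adjusted p = 0.00063), and their summed level ran from 89.2 to 464 CPM over the SCN libraries. After the scores of SCN neurons, oligodendrocytes and astrocytes had been fitted out of both, Bhlhe41 and the clock targets had r = 0.68 (adjusted p = 0.0065 over 15 relations, permutation test). Clock itself followed the clock targets at r = 0.65 (rho 0.64 with permutation p = 0.0040, p = 0.0028 for r and adjusted p = 0.031). Clock had 0.55 and 0.72 within the ranges, 0.62 without the 2 extreme libraries (adjusted p = 0.083), 0.65 without the 3 SCN libraries that stand apart (adjusted p = 0.061) and 0.51 after the same fit (adjusted p = 0.078, permutation tests). Arntl had an r of 0.53 with the targets and 0.61 with the SCN neuron score, which did not pass (adjusted p = 0.054 for the latter, permutation test), and after the fit its r with the targets was 0.077. Bhlhe41 had an r of 0.52 with the targets in the NAc as well as in the PFC, which did not pass (adjusted p = 0.054 and 0.13, permutation tests), and 9 of 9 and 7 of 9 targets had a positive r with it there. Single targets had a median r of 0.23 in the NAc (lowest 0.0185, Nr1d1) and 0.36 in the PFC (lowest -0.30, Per2). The share of all genes with a positive r with a member was not counted in any region. With the score of the 9 targets, the NAc r was 0.54 without NAc J1159 (adjusted p = 0.045). After the fit of composition scores the r with that score was 0.12 in the NAc and 0.34 in the PFC (adjusted p = 0.85 and 0.35, permutation tests). The share of these relations that comes from how much SCN a punch held was not tested beyond that fit.

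**Figure D4:**
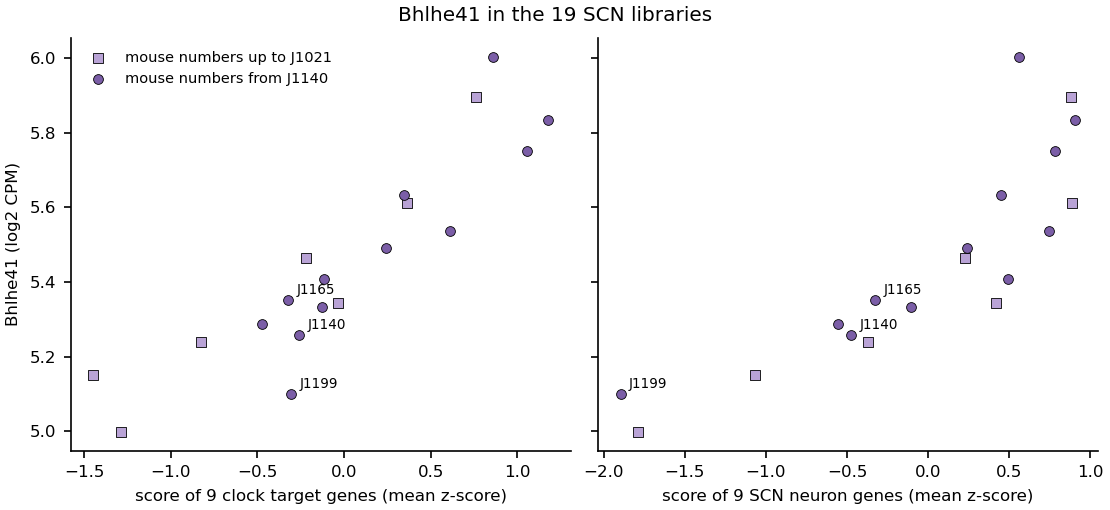
Bhlhe41 in log2 CPM (vertical axis) against the mean z-score of 9 clock target genes (left) and of 9 SCN neuron genes (right) in the 19 SCN libraries; squares are mouse numbers up to J1021 and circles those from J1140, and 3 libraries that stand apart are named. The points rise from J1018 at 31.9 CPM to J1159 at 64.1 CPM in both panels, with r of 0.90 and 0.85.

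Over all 19 SCN libraries Npas2 passed with no score. Its r was -0.59 with the SCN neuron score (adjusted p = 0.063) and 0.59 with the striatal score (adjusted p = 0.10, permutation tests), but the latter had a rho of 0.075. Without SCN J1199, SCN J1140 and SCN J1165 the r was -0.33 with the SCN neuron score (adjusted p = 0.41, permutation test). It was then -0.017 with the striatal score, so the striatal relation rested on those libraries. In the same setting Npas2 passed with the oligodendrocyte score, at r = -0.79 (adjusted p = 0.0081, against -0.48 with adjusted p = 0.13 over all SCN libraries), and with the astrocyte score, at r = -0.67 (adjusted p = 0.045, against -0.46 with adjusted p = 0.15, permutation tests). With the clock targets its r was -0.24 over all SCN libraries and 0.60 after the fit of composition scores (adjusted p = 0.023, permutation test). That fit did not include the striatal score, and it used all 19 SCN libraries, among them SCN J1199 with the highest Npas2. Whether this value holds without the libraries that stand apart was not tested.

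Bhlhe40 had an r of 0.23 with the clock targets in the SCN, which did not pass, and followed the astrocyte score there, with r = 0.66 (rho 0.74 with permutation p = 0.00043, p = 0.0018 for r and adjusted p = 0.028), 0.83 and 0.75 within the ranges, and 0.61 without the 2 extreme libraries (adjusted p = 0.083). Whether the r of the 2 paralogs differ was not tested. In the PFC, Bhlhe40 followed the clock targets with r = 0.68 (n = 17, rho 0.74 with permutation p = 0.0014, p = 0.0027 for r and adjusted p = 0.031), 0.76 and 0.60 within the ranges, 0.59 without the 2 extreme libraries (adjusted p = 0.14), and 0.73 after the fit on cortical neuron, oligodendrocyte and astrocyte scores (adjusted p = 0.0065, permutation tests). Of the genes of that region, 0.562% had an r with the score as large. In the NAc the r of Bhlhe40 with the targets was 0.18, and it was 0.70 after the fit on the scores of striatal neurons, oligodendrocytes and astrocytes (adjusted p = 0.0018, permutation test). That fit did not include the cortical score, and it used all 26 NAc libraries, among them NAc J1199 with the highest Bhlhe40. Whether the value after the fit holds without NAc J1199 was not tested. The targets were split in the NAc. Without that fit 5 of the 9 had a positive r with Bhlhe40, up to 0.73 for Nr1d1 and 0.57 for Per1, while Nr1d2 had -0.62, Hlf -0.47 and Tef -0.42. In the PFC 7 of the 9 were positive. Bhlhe40 is also known as an activity-induced gene, but its r with the activity score was 0.11 for the SCN, 0.25 for the NAc and 0.11 for the PFC, and none passed.

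In the NAc several members moved with neuron markers. Npas2 followed the striatal neuron score, with r = 0.74 (n = 26, rho 0.72 with permutation p = 8e-05, p = 5e-05 for r and adjusted p = 0.0021), 0.42 and 0.85 within the ranges, 0.70 without the 2 extreme libraries, and 0.66 without NAc J1199 (adjusted p = 0.017, permutation test). Of all genes 5.14% had as large an r with this score. Bhlhe41 fell where cortical neuron genes were higher, with r = -0.65 (rho -0.69 with permutation p = 0.00019, p = 0.00042 for r and adjusted p = 0.013), -0.55 and -0.76 within the ranges and -0.64 without the 2 extreme libraries. Bhlhe41 also rose with the striatal score (r = 0.60, adjusted p = 0.028), but the relation did not pass without NAc J1199 (0.52, adjusted p = 0.073) or without the 2 extreme libraries (0.50, adjusted p = 0.12, permutation tests). Bhlhe40 rose with the cortical score, with r = 0.58 (rho 0.40 with permutation p = 0.047, p = 0.0018 for r and adjusted p = 0.028), 0.55 and 0.57 within the ranges and 0.60 without the 2 extreme libraries, but 0.49 without NAc J1199 (adjusted p = 0.081, permutation test). Bhlhe40 rose with the astrocyte score too (r = 0.57, and 0.46 with adjusted p = 0.14 without the 2 extreme libraries, permutation test), while Arntl fell with it, at r = -0.62 (rho -0.57 with permutation p = 0.0027, p = 0.00055 for r and adjusted p = 0.014), -0.67 and -0.68 within the ranges and -0.55 without the 2 extreme libraries (adjusted p = 0.083, permutation test). As large an r was common among all genes for the NAc scores, at 15.4% for Bhlhe41 with the cortical score, 24.8% for Bhlhe40 with it and 28.2% for Arntl with the astrocyte score. Cortical neuron genes summed to between 10.9 and 443 CPM over the NAc libraries and to between 776 and 909 CPM in the PFC, and striatal neuron genes to between 970 and 2197 CPM in the NAc. The part of these markers in the NAc and PFC differences was not tested.

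**Figure D5:**
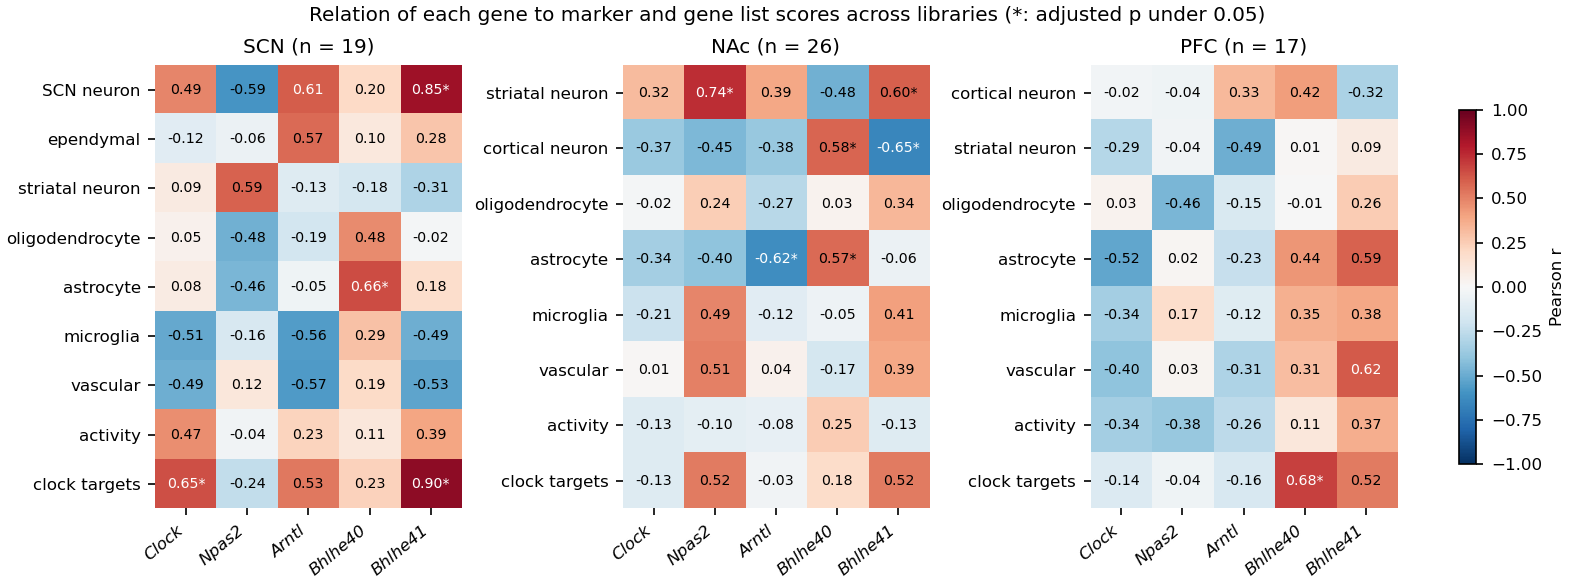
Pearson r (colour and number) of each of the 5 genes with the score of each gene list across the libraries of the SCN, NAc and PFC; an asterisk marks an adjusted p under 0.05. The deepest cell is that of Bhlhe41 with the clock targets in the SCN, at 0.90, and the PFC has 1 marked cell, Bhlhe40 with the clock targets.

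Whether the level of a member in 1 region of a mouse goes with its level in another was tested in 15 relations, of which 0 passed, with adjusted p of at least 0.97 (two-sided permutation tests). The r ran from -0.16 for Clock in the SCN and NAc to 0.39 for Bhlhe40 in the SCN and PFC. Of these, 0 had an unadjusted p under 0.05 by Pearson r. By Spearman rho, Arntl in the SCN and NAc had 0.48 with an unadjusted permutation p of 0.037 over 19 mice. These relations go by mouse number and include SCN J1165. Without SCN J1199, SCN J1140, SCN J1165 and NAc J1159 the r ran from -0.26 for Clock in the SCN and NAc to 0.40 for Bhlhe40 in the SCN and PFC.

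The genes whose pattern over libraries was most like each member's were ranked by the mean r over the 3 regions, among 8478 genes, as a description. For Bhlhe41 they were Hlf (0.67), itself a clock target, Mxi1 (0.64) and Tcf12 (0.60). For Npas2 they were Ptpn5 (0.62), which encodes the striatal phosphatase STEP, Rasd2 (0.61) and Lzts3 (0.61). For Bhlhe40 they were Atp1b2 (0.67), Tnks1bp1 (0.67) and Nuak1 (0.66). For Clock they were Elavl1 (0.72), which encodes the RNA-binding protein HuR, Rmnd5a (0.70) and Dcp2 (0.66). For Arntl they were Pan3 (0.59), Ppp4r2 (0.57) and Srpr (0.56). Clock came at place 11 for Arntl, with a mean r of 0.51, and Arntl at place 65 for Clock.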

How the data were processed

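Gene counts of 62 libraries were used. The authors made libraries with a SmartSeq HT kit, checked reads with FastQC 0.11.7, aligned them to GRCm38 with HISAT2, counted them with HTSeq in union mode, removed low genes and deposited the counts without normalization. Whether strand was used in counting is not given in the sources used here. For the NAc against the PFC, edgeR 4.0.16 in R 4.3.3 was used (TMM, filterByExpr, quasi-likelihood test, no block), and DESeq2 1.42.0 was tried too. Libraries of 17 mice pair by animal; the correlation of their deviations from the region means had a median of 0.0061 and exceeded 0.1 in 7 of 17. Levels are CPM, correlations used log2 CPM (prior count 2), and ratios used counts plus 0.5. Score genes had a mean of at least 1 CPM. Permutation tests (Python 3.11.15, numpy 2.4.6, scipy 1.17.1) were two-sided, with 100000 resamples, and exact under 10 libraries. Both tools were tested on simulated data. Positions and exon lengths are from GENCODE M21, promoters from RefSeq GRCm38.p6. The 5 genes and all lists were chosen with earlier results of these data known. Clock genes were named by the largest log2 differences, 3 in each direction (Nr1d1 was added after its value was seen), pairs and scores if they passed or by a fixed list, and alike genes by the 3 highest mean r. Relations without NAc J1199 and the fits of composition scores against clock targets were added after seeing the data. Alternatives are listed in the closing section. Between any 2 libraries of a region the chi-square per gene was at least 13.1, so none was counted as a repeat.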

Additional observations from a re-analysis of the deposited data

How the results depend on the processing

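The direction and call of Npas2, Arntl, Bhlhe40 and Bhlhe41 between the NAc and PFC held in DESeq2, its size factors, other filters, the replicate block, each range of mouse numbers and without single libraries; 4 members were called in each. With the mouse as replicate block, pairing the 17 mice, the log2 differences were 0.55, -0.48, -1.59 and 1.04, and no call changed apart from the Bhlhe41 to Bhlhe40 ratio given with the results. The difference of Clock, which was not called, changed sign to 0.041 with the block, to 0.044 in those mice with no block, to 0.040 in the lower range and to 0.0034 without mitochondrial and ribosomal RNA genes. The Arntl to Clock ratio, SCN minus NAc, which did not pass, was -0.026 in the upper range and -0.015 with medians. Pairs of members passing in the SCN numbered 1 by Spearman, 1 without the libraries that stand apart, 1 after composition residuals (Clock with Bhlhe41), and 0 in either range or without the 2 extreme libraries. In the NAc they numbered 1 with DESeq2 size factors, in the upper range, without ribosomal RNA, without NAc J1159 or after residuals, and 0 by Spearman, in the lower range or without extremes. Without NAc J1199 they numbered 2, with Clock and Bhlhe40 in place of Npas2 and Bhlhe40. Score relations passing were 0 in the lower range in every region. Without extremes they were 2 for the SCN, 3 for the NAc and 0 for the PFC, and in the upper range 3 for the SCN, 3 for the NAc and 0 for the PFC. Those of the upper range include Clock with the microglia score in the SCN (r = -0.86) and Npas2 with that score in the NAc (r = 0.82). Both had adjusted p = 0.0175 there, but neither passed over all libraries (adjusted p = 0.11 and 0.070, permutation tests). Score relations passing in the NAc were 8 with DESeq2 size factors or without ribosomal RNA, 7 without NAc J1159 and 4 without NAc J1199, against 6, and in the SCN 5 without the libraries that stand apart, against 4. Ranges hold 7 to 14 libraries, and the cause of these losses was not tested. Pairs that did not pass changed sign. Clock with Npas2 had 0.19 (upper range), 0.012 (without libraries apart) and 0.46 (residuals) in the SCN, -0.15 (residuals) in the NAc and 0.040 (upper range) in the PFC. Npas2 with Arntl had 0.054 (lower range), 0.12 (without extremes) and 0.28 (residuals) in the SCN, -0.019 (lower range) and -0.35 (residuals) in the NAc, and -0.044 (Spearman), -0.59 (lower range), -0.27 (without extremes) and -0.014 (residuals) in the PFC. Bhlhe40 with Bhlhe41 had -0.11 (residuals) in the SCN, 0.026 (lower range) in the NAc and -0.011 (upper range) in the PFC, and Bhlhe40 with the activity score -0.14 (upper range) in the SCN. Scores limited to genes of at least 10 CPM left some lists with under 3 genes, and those relations were not run. Npas2 in the SCN rested on 96 to 481 counts, the fewest of any member.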
